A study of Homo sapiens with 5 samples.

Results

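Caldesmon (CALD1), the tropomyosins (TPM1, TPM2, TPM3 and TPM4), the calponins (CNN1, CNN2 and CNN3), transgelin (TAGLN) and myosin light chain kinase (MYLK) were followed in 3 related human renal cell carcinoma lines. The members were all probe sets, groups of short probes read as 1 value, that the platform's gene table assigns to exactly 1 of these 10 symbols. There were 38 such probe sets among the 54675 on the array, for 9 of the 10 genes (of 19775 genes named on it); TPM3 was not analysed here. SN12C is the parental line, labelled non-metastatic, with 2 arrays (replicates 1 and 2). LM1, labelled as lung-metastatic generation 1, had 1 array, and LM2, labelled as generation 2, had 2 (replicates 1 and 2). The labels name no treatment, and the derivation of the lung generations was not given in the sources used here. The replicates are labelled biological, without saying whether they came from separate cultures, and the p-values therefore cover only array-to-array spread, which may be technical.

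The members act on the actin filament. Tropomyosins lie along it as coiled-coil dimers and decide which other proteins may bind; caldesmon and the calponins bind actin and damp the myosin motor; transgelin, a small calponin relative, binds actin too; and MYLK, switched on by calcium and calmodulin, phosphorylates the myosin light chain and so starts contraction. Outside muscle these proteins belong to stress fibres, the contractile bundles of spread cells. CALD1, the tropomyosin genes and MYLK give several protein isoforms each through alternative starts or splicing, so probe sets of 1 gene can read different transcripts. Many smooth muscle genes are switched on by serum response factor (SRF), which binds a DNA element called the CArG box.

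The start regions of the members are shown because these genes have been studied as a group under SRF. RefSeq promoter windows (assembly GRCh38.p14, 250 bases before to 50 after a gene start) were given for 9 of the 10 members, 17 windows in all. TAGLN had none. The CArG box was searched as cc, then 6 bases that are each a or t, then gg, a pattern that reads alike on both strands. It was found in 3 of the 17 member windows, those of TPM4 (1 of 3), CNN2 and MYLK, and in 1.29% of the 35116 windows in the table. Such a match is a stretch of letters, not a shown binding site. The 250 bases before the start follow, 5′ to 3′, with the match in capitals, and with CNN1 added as the member that was lower in both lung lines.
MYLK (chr3:123620549-123620798, - strand): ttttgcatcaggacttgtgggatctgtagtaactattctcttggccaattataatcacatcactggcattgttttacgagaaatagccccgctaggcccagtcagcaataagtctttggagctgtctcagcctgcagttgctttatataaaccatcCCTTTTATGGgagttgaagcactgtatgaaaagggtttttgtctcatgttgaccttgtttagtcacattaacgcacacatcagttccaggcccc
TPM4 (chr19:16067288-16067537, + strand): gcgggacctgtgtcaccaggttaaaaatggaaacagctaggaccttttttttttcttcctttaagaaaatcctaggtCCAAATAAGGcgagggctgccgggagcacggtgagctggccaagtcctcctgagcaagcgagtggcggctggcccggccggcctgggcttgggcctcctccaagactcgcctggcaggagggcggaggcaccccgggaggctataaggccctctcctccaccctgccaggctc
CNN2 (chr19:1026358-1026607, + strand): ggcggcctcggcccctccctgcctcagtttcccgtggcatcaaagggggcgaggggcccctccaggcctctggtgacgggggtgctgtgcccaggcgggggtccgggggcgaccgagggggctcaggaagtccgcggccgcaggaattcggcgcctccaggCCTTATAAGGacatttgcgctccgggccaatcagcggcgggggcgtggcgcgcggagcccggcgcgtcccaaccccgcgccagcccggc
CNN1 (chr19:11538601-11538850, + strand): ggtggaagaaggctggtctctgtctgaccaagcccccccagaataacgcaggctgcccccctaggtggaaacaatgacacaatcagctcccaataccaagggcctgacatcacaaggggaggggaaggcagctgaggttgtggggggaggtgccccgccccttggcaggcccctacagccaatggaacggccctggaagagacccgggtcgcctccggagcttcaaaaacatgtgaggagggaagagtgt
The matches begin 94 bases before the start for MYLK, 173 for TPM4 and 89 for CNN2.

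All values are log2 signals as deposited, on which 1 unit is a doubling. Tests were run on probe sets with 2 or more arrays at or above 6.03, which is the 40th percentile over the table. Of the 38 member probe sets 28 passed, and 33376 of all probe sets did. The other 10 (6 of CALD1, 2 of MYLK and 1 each of TPM1 and TPM4) were below 6.03 on all 5 arrays, with values from 3.60 to 5.78. Among the 28, the CALD1 probe sets 201616_s_at and 201617_x_at passed only through the LM2 arrays, so for these a difference was built into the filter. Names ending in _s_at or _x_at mark probe sets that can bind several transcripts, and 14 of the 28 are of these kinds. Levels of different probe sets are not read as relative amounts of transcript. They serve only to call probe sets bright or dim and to choose 1 probe set of a gene where 1 is needed.

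**Figure D1:**
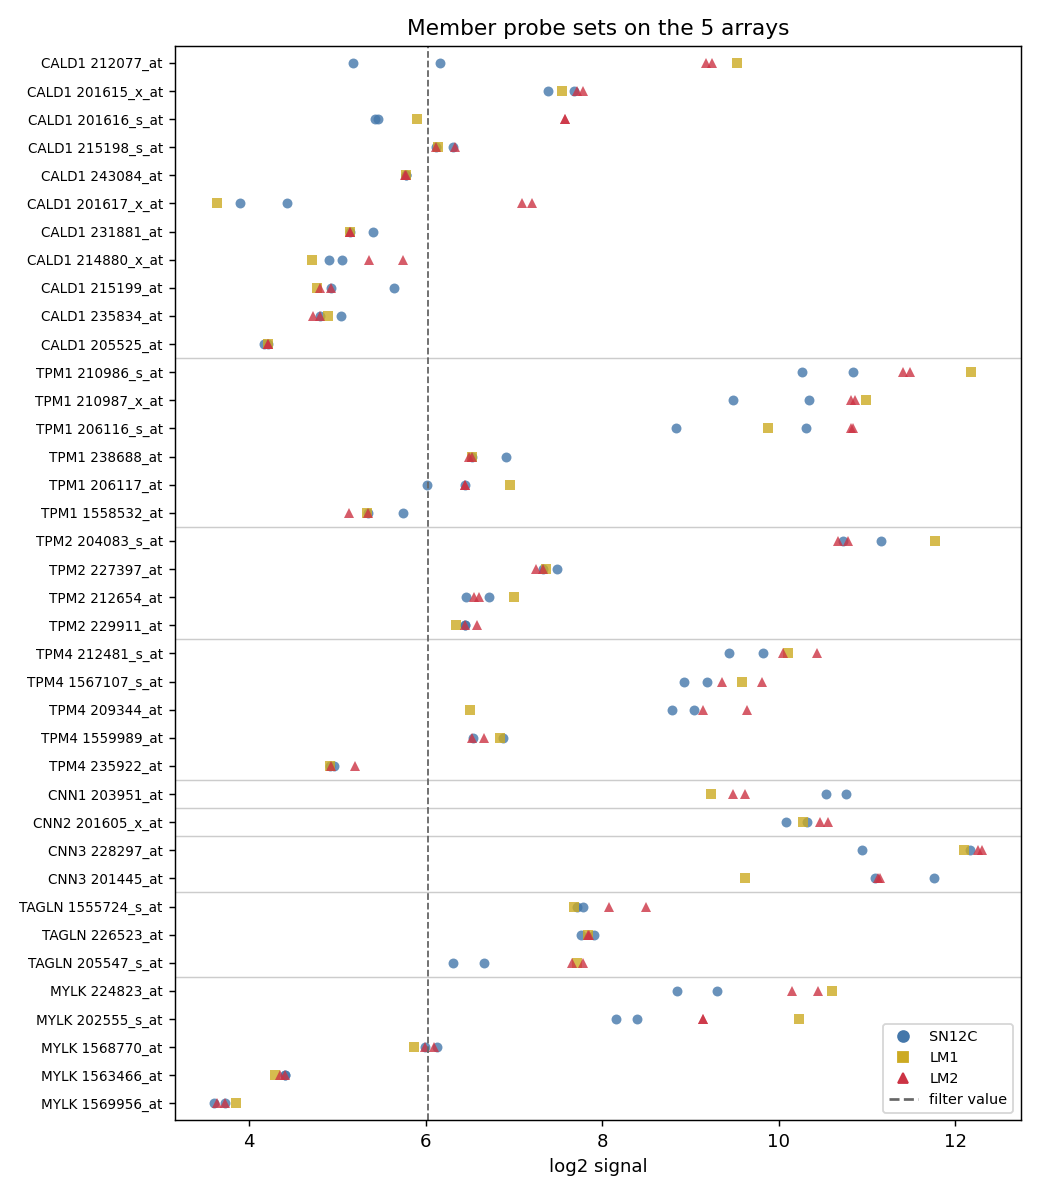
Log2 signal (horizontal axis) of the 38 member probe sets (rows, by gene) on the 5 arrays. Each point is 1 array, the dashed line is the filter value of 6.03. In CALD1 212077_at the LM1 and LM2 arrays lie at 9.17 to 9.52 and both SN12C arrays at or under 6.16, while CNN1 203951_at shows the reverse order.

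The arrays differed in quality, and the part of this in the member values was not tested. The control probe sets for beta-actin read 3.43 log2 units more at the 3′ end than at the 5′ end on the LM1 array and 0.07 to 0.47 more on the other 4, and for GAPDH the difference was 2.09 on LM1 and -0.07 to 0.14 elsewhere. The SN12C arrays stood a median of 0.28 apart over the tested probe sets and the LM2 arrays 0.07. SN12C replicate 2 was nearer to the LM2 arrays (0.123 and 0.115) than to SN12C replicate 1, which lay 0.29 to 0.358 from the LM1 and LM2 arrays. Array medians were 6.51 to 6.57. Of the 9 renal markers, PAX8 read 9.19 to 9.82, and KRT8, KRT18 and vimentin 12.46 to 14.72. MME read 9.998 to 10.935 and KRT19 8.92 to 12.01. PAX2, at 6.34 to 6.46, stayed under every array median, and CA9 was not measured. CDH16, a marker of kidney tubule, reached 6.03 on 1 array. Whether these values match the carcinoma labels was not tested. Of the markers of other cells, 6 of 7 fibroblast, 5 of 6 smooth muscle, 3 of 4 endothelial and 3 of 5 leukocyte genes were at or above 6.03 on all arrays, while LUM, MYOCD, CDH5, PTPRC and LYZ were below it on all. That value is below every array median, and 32554 to 33372 of the 54675 probe sets reached it on each array. Reaching it is therefore no sign that a transcript was present.

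Set against its parent, LM2 had more caldesmon, TPM1, MYLK and transgelin signal and less CNN1 signal, though not in every probe set. The arrays of LM2 and SN12C did not overlap for 17 of the 28 tested member probe sets. Of these, 16 were higher in LM2, a class that held 23.7% of all tested probe sets, and 1 was lower, a class that held 13% of all. At least 1 log2 unit apart as well were 6 higher (1.91% of all) and 1 lower (1.02%); by size alone these classes held 2% and 1.05% of all. The median difference over the 28 was 0.39, against 0.03 over all tested probe sets. In limma, 0 of the 33376 passed an adjusted p of 0.05 (lowest adjusted p = 0.328; 0% called), 3178 (9.52%) had an unadjusted p under 0.05, and of the members 8 of 28 did. Without the probe sets that passed only through LM2 (51 of all, 2 of them members), 14 of 26 were higher with no overlap (23.6% of all). By at least 1 log2 unit as well 4 of 26 were higher (1.88%), 6 of 26 had an unadjusted p under 0.05 (9.48%), and the median was 0.27. Among the 14 members ending in plain _at, 4 were higher and 1 lower without overlap, 9 overlapped and the median was 0.0019. The shares over all probe sets of that kind were not counted. A bulk array cannot tell more cells with a transcript from more transcript per cell.

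Caldesmon gave the largest difference of the members and the widest disagreement between probe sets. The gene has 4 start windows in the RefSeq table, none with a CArG match, and the 100 bases before each start are shown because the probe sets may read transcripts from different starts.
CALD1 start a (chr7:134711399-134711498, + strand): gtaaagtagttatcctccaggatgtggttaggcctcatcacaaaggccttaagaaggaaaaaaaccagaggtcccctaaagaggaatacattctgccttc
CALD1 start b (chr7:134745367-134745466, + strand): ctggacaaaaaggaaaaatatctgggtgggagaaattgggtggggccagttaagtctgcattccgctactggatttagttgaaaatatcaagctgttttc
CALD1 start c (chr7:134779534-134779633, + strand): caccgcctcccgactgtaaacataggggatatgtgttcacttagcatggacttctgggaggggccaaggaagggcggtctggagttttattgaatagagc
CALD1 start d (chr7:134891358-134891457, + strand): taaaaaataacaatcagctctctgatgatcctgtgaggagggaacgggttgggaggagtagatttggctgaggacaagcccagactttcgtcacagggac
Which start is used in these lines was not measured.

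Probe set 212077_at of CALD1 read 5.18 and 6.16 on the SN12C arrays, 9.52 on LM1 and 9.17 and 9.25 on LM2. Both lung lines were far above the parent and close to each other. LM2 exceeded SN12C by 3.54 ± 0.39 (SE; 11.7-fold) and LM1 by 3.86 ± 0.48 (14.5-fold), with limma adjusted p = 0.328 and 0.0844. One of the SN12C values is below 6.03; with it set to 6.03 the differences were 3.12 for LM2 and 3.43 for LM1. Probe set 201617_x_at read 3.90 and 4.43 in SN12C, 3.64 in LM1 and 7.21 and 7.09 in LM2. Here only the LM2 arrays were high, and LM1 was the lowest of the 5. As deposited, LM2 exceeded SN12C by 2.98 ± 0.23 and LM1 by 3.51 ± 0.28 (limma adjusted p = 0.328 and 0.106). The SN12C and LM1 values are under 6.03, and with them set to 6.03 both differences were 1.12. Probe set 201616_s_at read 5.43 and 5.46 in SN12C, 5.90 in LM1 and 7.58 and 7.58 in LM2, a difference between LM2 and SN12C of 2.14 ± 0.07 (limma adjusted p = 0.328; unadjusted 4.15e-05). LM1 was 0.46 above the parent as deposited. Its value and those of SN12C are under 6.03 too, and with them set to 6.03 the LM2 difference was 1.55.

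The other tested CALD1 probe sets differed little. Probe set 201615_x_at stayed between 7.38 and 7.79 on all 5 arrays, with LM2 0.22 ± 0.14 above SN12C, and 215198_s_at between 6.11 and 6.33. Of the 6 below the filter, 214880_x_at stood at 4.91 and 5.05 in SN12C, 4.71 in LM1 and 5.36 and 5.75 in LM2, and 205525_at, 231881_at and 243084_at held the same deposited value on 4 of the arrays. Of the 11 CALD1 probe sets, 3 thus stood at least 1 log2 unit higher in LM2, with or without values under 6.03 set to it.

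**Figure D2:**
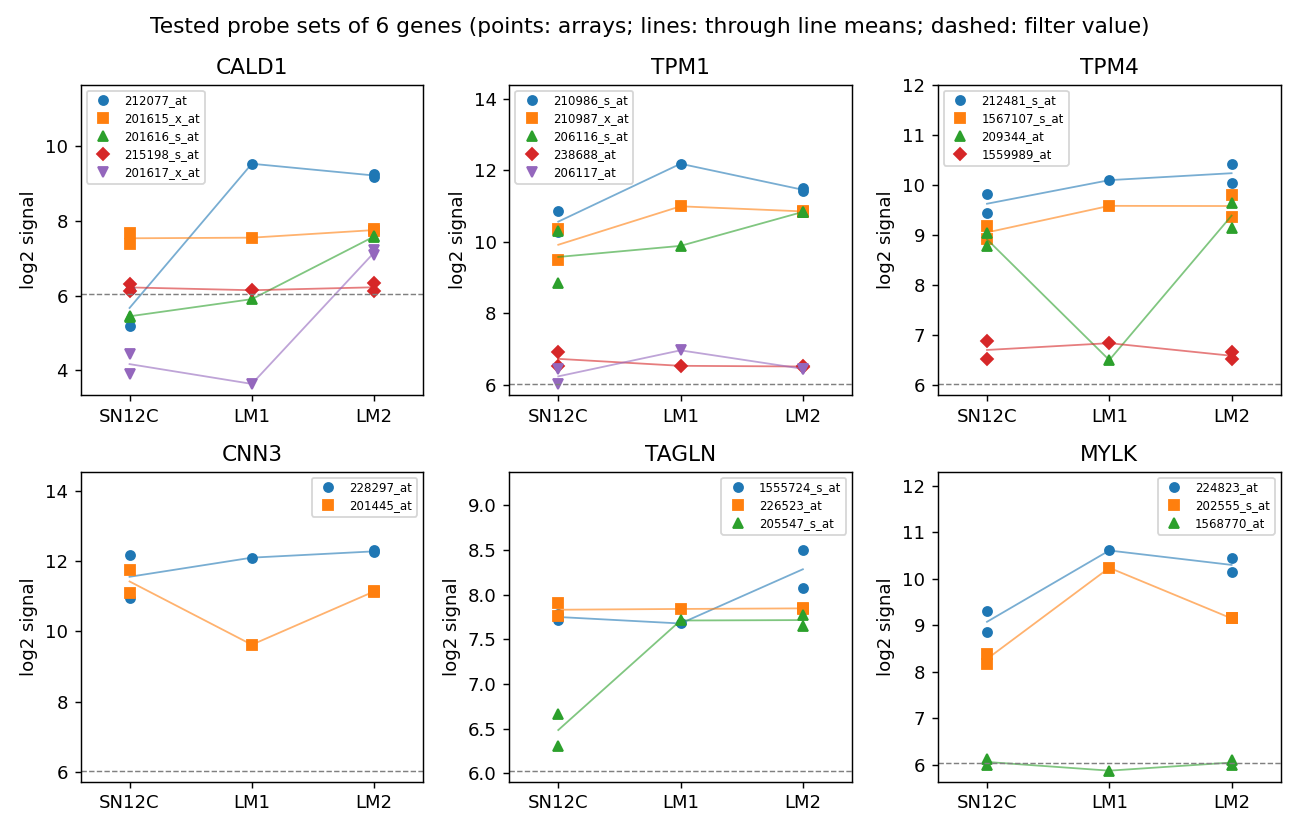
Log2 signal (vertical axis) of the tested probe sets of 6 genes in SN12C, LM1 and LM2; points are arrays, lines join the means of the lines and the dashed line is 6.03. CALD1 212077_at is high in LM1 and LM2, 201616_s_at and 201617_x_at in LM2 alone, and TPM4 209344_at and CNN3 201445_at are lowest on the LM1 array.

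Among the tropomyosins TPM1 was higher in both lung lines, TPM4 in LM2 in its 3 brighter probe sets, while the bright TPM2 probe set was higher in LM1 only. TPM1, whose products include the long isoforms of stress fibres, is read by 3 bright probe sets. Probe set 210986_s_at stood at 10.27 and 10.85 in SN12C, 12.18 in LM1 and 11.49 and 11.41 in LM2. All 3 lung arrays were above both parental ones, with LM1 highest. The difference from SN12C was 0.89 ± 0.24 for LM2 and 1.62 ± 0.29 for LM1 (limma adjusted p = 0.466 and 0.112). Probe set 210987_x_at read 9.48 and 10.34 in SN12C, 10.99 in LM1 and 10.87 and 10.82 in LM2, a difference of 0.93 ± 0.35 for LM2 (limma adjusted p = 0.568), which was 0.50 against SN12C replicate 2 alone. Probe set 206116_s_at read 8.83 and 10.31 in SN12C, 9.88 in LM1 and 10.82 and 10.84 in LM2. There the LM1 array fell between the parental arrays. The LM2 difference of 1.26 ± 0.59 (limma adjusted p = 0.647) rests on SN12C replicate 1: it was 2.00 against replicate 1 and 0.52 against replicate 2. The dimmer 238688_at (6.49 to 6.91) and 206117_at (6.02 to 6.96) differed by -0.21 and 0.21 between LM2 and SN12C.

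TPM2 encodes the beta chain of muscle and stress fibre tropomyosin. Its bright probe set 204083_s_at read 10.72 and 11.15 in SN12C, 11.77 in LM1 and 10.78 and 10.67 in LM2. LM1 was the highest array, while LM2 overlapped the parent. LM2 differed from SN12C by -0.21 ± 0.19 and from LM1 by -1.04 ± 0.23 (limma adjusted p = 0.682 and 0.16). The other 3 TPM2 probe sets lay between 6.34 and 7.49, with LM2 differences of -0.12 to 0.07.

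TPM4 encodes a short tropomyosin found in many non-muscle cells. Probe set 212481_s_at read 9.44 and 9.82 in SN12C, 10.10 in LM1 and 10.43 and 10.05 in LM2, and 1567107_s_at read 8.93 and 9.19, then 9.59, then 9.81 and 9.36 in the same order. In both, every lung array exceeded both parental arrays, by 0.61 ± 0.22 and 0.53 ± 0.22 for LM2 (limma adjusted p = 0.563 and 0.607). Probe set 209344_at read 9.05 and 8.79 in SN12C, 6.51 in LM1 and 9.64 and 9.14 in LM2. It was lowest by far on the LM1 array, whose difference from SN12C was -2.41 ± 0.28 (5.32-fold lower; limma adjusted p = 0.0826), while LM2 stood 0.47 ± 0.23 above SN12C. The dim 1559989_at (6.53 to 6.88) differed by -0.12.

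The calponins did not share a direction. CNN1, the calponin of smooth muscle, was read by 1 probe set, 203951_at, at 10.76 and 10.54 in SN12C, 9.23 in LM1 and 9.61 and 9.48 in LM2. Every lung array was below both parental arrays. The difference was -1.10 ± 0.12 for LM2 (2.15-fold lower) and -1.42 ± 0.15 for LM1 (limma adjusted p = 0.328 and 0.08). This was the only member probe set lower in LM2 without overlap. CNN2, a calponin of many non-muscle cells, read 10.08 and 10.32 in SN12C, 10.28 in LM1 and 10.56 and 10.47 in LM2 (201605_x_at), with LM2 0.31 ± 0.12 higher (limma adjusted p = 0.574) and LM1 inside the parental range.

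CNN3, the acidic calponin, had probe sets that opposed each other between the SN12C arrays. Probe set 228297_at read 10.94 and 12.17 in SN12C, 12.10 in LM1 and 12.30 and 12.26 in LM2, and 201445_at read 11.76 and 11.09, then 9.62, then 11.13 and 11.15. SN12C replicate 1 was thus the lowest array for the former and the highest for the latter. The LM2 differences were 0.73 ± 0.49 and -0.29 ± 0.27 (limma adjusted p = 0.679 and 0.688). Against SN12C replicate 2 alone they were 0.11 and 0.05, so both rest on replicate 1.

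TAGLN, an early marker of smooth muscle, was measured through 3 probe sets. Probe set 205547_s_at read 6.30 and 6.67 in SN12C, 7.71 in LM1 and 7.65 and 7.78 in LM2. The 3 lung arrays lay together above the parent, by 1.23 ± 0.17 for LM2 (2.35-fold) and 1.23 ± 0.20 for LM1 (limma adjusted p = 0.342 and 0.103). Probe set 1555724_s_at read 7.79 and 7.71 in SN12C, 7.68 in LM1 and 8.07 and 8.49 in LM2, so that LM2 alone was higher, by 0.53 ± 0.18 (limma adjusted p = 0.539). Probe set 226523_at stayed between 7.76 and 7.90 on all arrays.

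MYLK was higher in both lung lines in its bright probe sets. Probe set 224823_at read 8.84 and 9.30 in SN12C, 10.60 in LM1 and 10.15 and 10.44 in LM2, and 202555_s_at read 8.16 and 8.39, then 10.23, then 9.14 and 9.14. All lung arrays exceeded both parental arrays in each. LM2 was higher by 1.22 ± 0.22 and 0.87 ± 0.11 (limma adjusted p = 0.389 and 0.338), and LM1 by 1.53 ± 0.27 and 1.96 ± 0.14 (0.11 and 0.0786). For 202555_s_at LM2 stood 1.09 below LM1 (a difference of -1.09 ± 0.14; limma adjusted p = 0.109). Probe set 1568770_at stayed within 5.87 to 6.12, and 2 others stayed at or below 4.41.

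The calls for LM2 depend on which parental array is kept. Without SN12C replicate 2, limma called 8105 probe sets (24.3%), 11 of them members: 3 of CALD1, 4 of TPM1, 2 of CNN3 and 1 each of TAGLN and MYLK. That fit takes its spread from the close LM2 pair alone. Its CALD1 calls include 201616_s_at and 201617_x_at, which passed the filter only through LM2. Without SN12C replicate 1 it called 0, with a lowest adjusted p of 0.111 among the members. By direction, LM2 exceeded SN12C replicate 1 in 21 of the 28 member probe sets and replicate 2 in 21 (55.8% and 50.5% of all tested). The medians were 0.43 and 0.28, against 0.05 and 0.0021 over all tested probe sets. Without the CALD1 probe sets that passed the filter only through LM2, the count was 19 of 26 against each replicate. The medians were then 0.38 and 0.155.

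The comparison of LM1 with SN12C asks what generation 1 already showed. Its array lay above both SN12C arrays in 12 of the 28 member probe sets (38.7% of all tested) and below both in 7 (27.7%). In 3 of the 28, CALD1 201617_x_at, TPM4 209344_at and TAGLN 1555724_s_at, LM1 and LM2 lay on opposite sides of both SN12C arrays (8.09% of all). LM1 was at least 1 log2 unit above the SN12C mean in 6 of the 28 member probe sets, in CALD1 (1), TPM1 (2), TAGLN (1) and MYLK (2), and at least 1 below it in 3, in CNN1, CNN3 and TPM4; over all tested probe sets the shares were 5.41% and 6.38%. In limma 0 of 33376 passed (0% called; lowest adjusted p = 0.0786), and 7757 had an unadjusted p under 0.05 (23.2%), among them 11 of the 28. LM1 has no replicate, and both comparisons share the SN12C arrays. Between LM2 and LM1, 0 passed as well (0% called; 6974 at an unadjusted p under 0.05, 20.9%, among them 6 of the 28). LM2 was at least 1 log2 unit above LM1 in 4 member probe sets (7.41% of all), 2 of CALD1 and 1 each of TPM4 and CNN3, and at least 1 below it in 2, of TPM2 and MYLK (1.94%). Both CALD1 probe sets, 201616_s_at and 201617_x_at, passed the filter only through LM2. Without such probe sets, 2 of 26 were at least 1 log2 unit above LM1 (7.34% of all). At an unadjusted limma p under 0.05 there were then 4 of 26 (20.8% of all). Where members were called between LM2 and LM1 in the alternatives below, both CALD1 probe sets were among them. After a further quantile normalization limma called 212077_at, 210986_s_at and 202555_s_at between LM1 and SN12C (adjusted p = 0.0499, 0.0436 and 0.0385; 3.47% of all called), and 201616_s_at and 201617_x_at between LM2 and LM1 (0.0463 and 0.0471; 0.974%). Without tied values it called 202555_s_at and 212077_at between LM1 and SN12C (0.0475 and 0.0497; 1.04%). Leaving out SN12C replicate 1 gave 7 member calls for LM1 against SN12C (19.1% of all called) and 6 for LM2 against LM1 (17.3%), and leaving out SN12C replicate 2 gave 11 (31.1%) and 6 (17.3%). Leaving out either LM2 array gave 0 in both.

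To ask whether probe sets of 1 gene differed unequally, each was set against the probe set with the highest mean of its gene, array by array, for all 7195 genes with at least 2 tested probe sets (12709 differences, 19 of them of the members). Between LM2 and SN12C limma called 0 of the 12709 (0%; lowest adjusted p = 0.375), and 716 had an unadjusted p under 0.05 (5.63%), 8 of the 19 member differences among them. At least 1 log2 unit apart were 6 of the 19, against 1.9% of all. The CALD1 differences among these all subtract 212077_at and are not separate observations. Without CALD1, 5 of the 15 member differences had an unadjusted p under 0.05 and 3 of the 15 were at least 1 log2 unit. In CALD1 the LM2 difference relative to that of 212077_at was -3.54 ± 0.31 for 215198_s_at and -3.32 ± 0.45 for 201615_x_at (limma adjusted p = 0.539 and 0.654). It was -1.41 ± 0.35 for 201616_s_at and -0.56 ± 0.21 for 201617_x_at (0.723 for both). In SN12C 212077_at averaged 5.67 and 201615_x_at 7.53, so 212077_at has the highest mean only through its lung arrays. The reference was thus chosen in part by the rise under comparison, and the negative signs were partly set by that choice. The TAGLN reference 1555724_s_at likewise has the highest mean only through its LM2 arrays. In SN12C it averaged 7.75, against 7.83 for 226523_at. The 5 of the 15 include TAGLN 226523_at, at -0.52 ± 0.19, whose sign was partly set in this way. Such disagreements are possible isoform differences; which transcripts the probe sets read was not tested.

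Between LM1 and SN12C, unequal change was common on the array as a whole. Limma called 2855 of the 12709 differences (22.5%) and 8 of the 19 member differences. An unadjusted p under 0.05 was reached by 38.8% of all and 14 of the 19, and 25.2% of all and 10 of the 19 were at least 1 log2 unit. All 4 CALD1 differences were called. They subtract the same probe set, 212077_at, which was itself 3.86 higher in LM1, and so are not separate observations. That probe set is the reference only through its high lung arrays, which partly sets the negative signs. Without CALD1, 4 of the 15 member differences were called, 10 had an unadjusted p under 0.05 and 6 were at least 1 log2 unit. The CALD1 values ran from -4.39 ± 0.26 for 201617_x_at (adjusted p = 0.0131) to -3.40 ± 0.43 for 201616_s_at (0.0166). TPM4 209344_at changed by -2.88 ± 0.31 relative to 212481_s_at (limma adjusted p = 0.0142), and TPM1 206117_at by -0.89 ± 0.18 relative to 210986_s_at (0.0356). MYLK 1568770_at changed by -1.72 ± 0.30 relative to 224823_at (0.0279). It stayed near the filter value, within 5.87 to 6.12, while 224823_at itself was 1.53 higher in LM1. TAGLN 205547_s_at rose by 1.30 ± 0.27 relative to 1555724_s_at (0.0388). CNN3 201445_at, at -2.35 ± 0.80 relative to 228297_at, did not pass (limma adjusted p = 0.107). All these calls rest on both LM2 arrays being in the fit: without LM2 replicate 1 or without LM2 replicate 2, 0 of the 12709 were called. Leaving out an SN12C array gave more, 6022 without replicate 1 and 6536 without replicate 2. The LM1 array is also the array with the large 3′ to 5′ difference in beta-actin and GAPDH, and the part of this in the unequal changes was not tested; the positions of the probe sets along the transcripts were not used here.

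Between LM2 and LM1, limma called 3039 of the 12709 differences (23.9%) and 4 of the 19 member differences. TPM4 209344_at differed by 2.75 ± 0.31 relative to 212481_s_at (limma adjusted p = 0.0135) and TPM2 229911_at by 1.21 ± 0.24 relative to 204083_s_at (0.0333). The dim TPM2 229911_at stayed within 6.34 to 6.58, while 204083_s_at itself differed by -1.04 between LM2 and LM1. CALD1 201617_x_at and 201616_s_at differed by 3.83 ± 0.26 and 1.99 ± 0.43 relative to 212077_at (0.0121 and 0.0391), both from LM1 values under 6.03. An unadjusted p under 0.05 was reached by 9 of the 19 (38.8% of all), and 6 were at least 1 log2 unit (24.7%). Without CALD1, 2 of the 15 member differences were called, 7 had an unadjusted p under 0.05 and 4 were at least 1 log2 unit. Both comparisons with LM1 use the same single array. Without either LM2 array 0 of the 12709 were called, and without either SN12C array 6531.

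**Figure D3:**
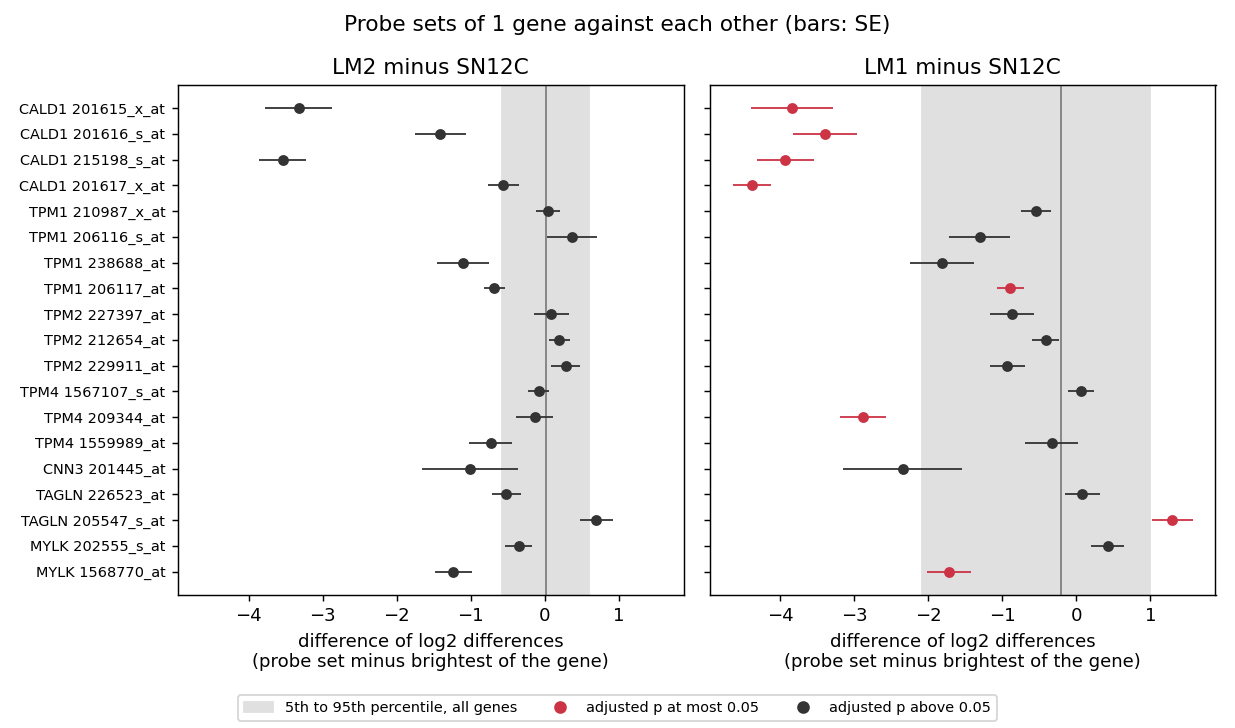
Change of each tested member probe set relative to the brightest probe set of its gene (horizontal axis, log2 units; points are limma estimates, bars SE), for LM2 (left) and LM1 (right) against SN12C. The grey band runs from the 5th to the 95th percentile of all 12709 differences, -0.57 to 0.60 for LM2 and -2.08 to 0.99 for LM1, and red marks an adjusted p of at most 0.05, reached by 8 member differences for LM1 and 0 for LM2.

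Genes that work with the members were read from 6 lists holding 60 genes, 49 of them tested, each through its brightest tested probe set. In no list did a gene pass the test between LM2 and SN12C (limma, over all probe sets), and the list medians ran from -0.02 to 0.27, against 0.03 over all tested probe sets. Of the 17 tested genes of myosin II and its control, 10 were higher and 7 lower (median 0.02), and 5 and 2 did not overlap. PPP1R14A, an inhibitor of the phosphatase that opposes MYLK, read 6.44 and 7.33 in SN12C, 9.07 in LM1 and 8.48 and 7.98 in LM2, so all lung arrays were above the parent, LM2 by 1.34 ± 0.41. The non-muscle heavy chain MYH10 was 0.58 ± 0.08 higher and the light chain MYL9 0.39 ± 0.22 higher. PPP1CB, the catalytic subunit of that phosphatase, stood at 0.61 ± 0.75 with 11.38 and 13.26 in SN12C, so its arrays overlapped.

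Of the 10 tested actins and actin cross-linkers, 7 were higher and 3 lower in LM2 (median 0.09). PALLD, the stress fibre protein palladin, read 11.13 and 11.53 in SN12C, 10.58 in LM1 and 10.22 and 10.36 in LM2, all lung arrays being lower, LM2 by -1.04 ± 0.18 (difference LM2 minus SN12C). The alpha-actinins ACTN4 and ACTN1 were 0.62 ± 0.16 and 0.37 ± 0.10 higher and vinculin (VCL) 0.28 ± 0.08 higher, without overlap. Smooth muscle alpha-actin (ACTA2) stayed between 6.89 and 6.96 on all arrays.

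Of the 9 tested genes in the list of SRF, its cofactors and targets, 4 were higher and 5 lower (median -0.02). TGFB1I1, a focal adhesion protein, read 9.39 and 9.10 in SN12C, 10.74 in LM1 and 10.81 and 10.30 in LM2, a difference of 1.31 ± 0.24 for LM2. The SRF cofactor MRTFB was 0.48 ± 0.14 higher without overlap, CCN1 differed by -0.43 ± 0.16, and KCNMB1 by -0.33 ± 0.26. SRF itself read 9.42 and 9.44 in SN12C, 9.70 in LM1 and 9.56 and 9.69 in LM2. Myocardin (MYOCD), the cofactor of the muscle lineage, was below 6.03 on all arrays.

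The remaining lists were small. TMOD3, which caps the slow-growing end of tropomyosin-coated filaments, was 0.46 ± 0.11 higher in LM2 without overlap, and TMOD2, TMOD1 and LMOD1 differed by 0.14, -0.08 and -0.06 (median of the 4 tested 0.04; 2 higher, 2 lower). TAGLN2, the transgelin of non-muscle cells, read 11.28 and 12.11 in SN12C, 12.41 in LM1 and 12.60 and 12.33 in LM2, a difference of 0.78 ± 0.35, and TAGLN3 differed by -0.24 (median of these 2 0.27). Of 7 tested splicing regulators 5 were higher and 2 lower (median 0.15). PTBP2 differed by -0.40 ± 0.10 and QKI by -0.15 ± 0.08, both without overlap, and SRSF1 and PTBP1 were 0.39 ± 0.33 and 0.31 ± 0.25 higher with overlap. Over all tested probe sets, 23.7% were higher and 13% lower without overlap.

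**Figure D4:**
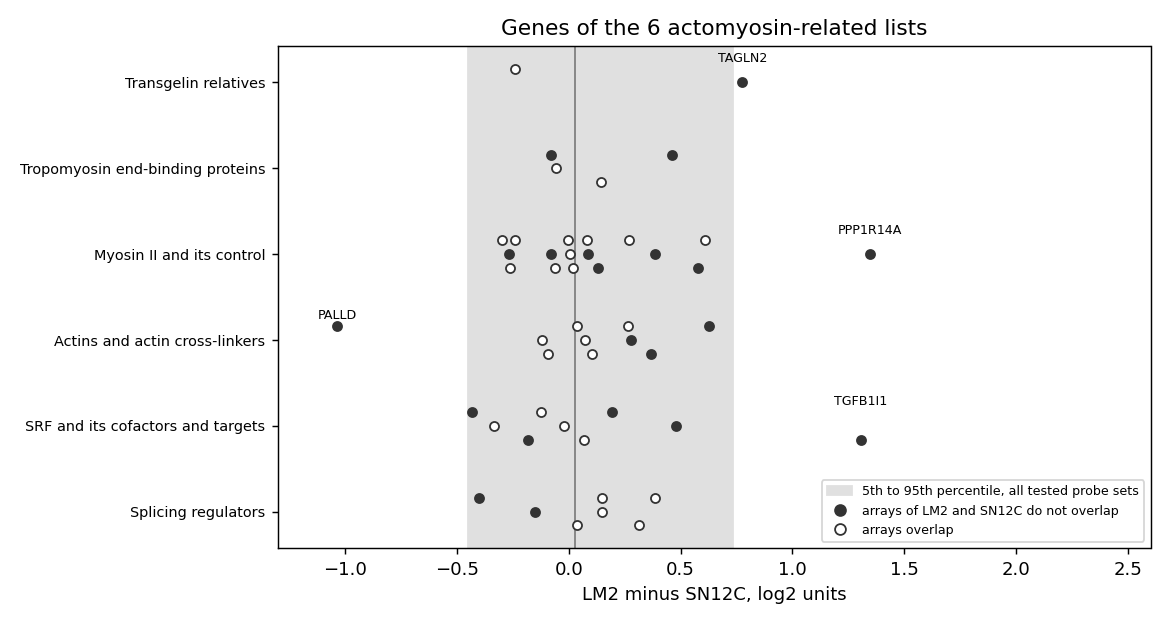
Difference between LM2 and SN12C in log2 units (horizontal axis) for the 49 tested genes of the 6 lists (rows); each point is 1 gene, filled where the arrays of both lines do not overlap. The grey band is the 5th to 95th percentile of all tested probe sets, -0.45 to 0.74, and the vertical line their median, 0.03; PPP1R14A, TGFB1I1, TAGLN2 and PALLD lie outside the band.

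Of the 7 fibroblast markers, PDGFRA, COL3A1, THY1 and FBLN1 were higher in LM2 than in both SN12C arrays, PDGFRB and DCN overlapped, and LUM was below 6.03 throughout. The LM1 array was above both SN12C arrays in PDGFRA, COL3A1, FBLN1 and LUM. Over all tested probe sets, 23.7% were above both SN12C arrays in LM2 and 38.7% in LM1. PDGFRA read 6.83 and 6.92 in SN12C and 7.06 and 6.97 in LM2. The summed log2 signal of the 7 was 50.8 to 54.8 in SN12C, 57 in LM1 and 57.8 to 58 in LM2, with COL3A1 at 6.99 and 8.98 in SN12C and 10.94 and 11.11 in LM2. The smooth muscle markers summed to 40.1 to 41.8 in SN12C, 40.3 in LM1 and 40.1 to 40.2 in LM2 over 6 genes. Of the 9 renal markers 8 were measured and summed to 82.5 to 84.2, 84.9 and 86.3 to 86.4. KRT19 read 8.92 and 9.54 in SN12C, 12.01 in LM1 and 11.77 and 11.74 in LM2. It was the only 1 of the 8 above both SN12C arrays in LM2, and the only 1 in LM1, where 4 of the 8 lay below both. The renal markers thus did not rise as a set. The endothelial sums (4 genes) were 25.2 to 26.1, 25.5 and 25.3 to 25.5, and the leukocyte sums (5 genes) 31.9 to 32.2, 31.8 and 31.5 to 31.8. VWF was the only endothelial marker above both SN12C arrays, in LM1 and in LM2, and 2 of the 4 were below both in each line. No smooth muscle or leukocyte marker was above both. The part of the fibroblast and renal markers in the member differences was not tested.

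The probe sets whose profile over the 5 arrays was most like that of CALD1 212077_at, by Euclidean distance after centring each on its mean, were those of TMEM200C (distance 0.308), CADM1 (0.447), CRIP1 (0.833), PPP2R2B (0.868) and NTM (0.955). CADM1, a cell adhesion molecule, read 5.52 and 6.99 in SN12C, 10.02 in LM1 and 10.03 and 9.83 in LM2. CRIP1 read 6.98 and 8.95 in SN12C, 12.36 in LM1 and 11.75 and 11.86 in LM2. That the lung arrays are above the parental ones in these follows from how they were chosen.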

How the data were processed

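Total RNA of 3 lines was measured on 5 Affymetrix arrays. Each probe set has 1 log2 value for each array, as the authors deposited it; RMA and Partek are named in the submitters' processing notes, without versions. RMA corrects background, quantile normalizes probes and summarises them on the log2 scale. Differences in total signal between the lines therefore cannot be read from the values. Spread still differed, with an SD over all probe sets of 2.115 on SN12C replicate 1 and 2.22 to 2.252 on the others. Many deposited values are equal between arrays (1814 tested probe sets in the SN12C pair, 4959 in the LM2 pair; 14 of the 38 members hold a repeated value), which shrinks their spread; their origin was not tested.

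The 62 control probe sets among 54675 were dropped. A platform table named 41097 with 1 gene, 1801 with several (not used) and did not list 11777. Probe sets with at least 2 arrays at the 40th percentile were fitted with limma 3.58.1 in R 4.3.3, 1 mean per line over all 5 arrays (2 residual and 1.21 prior degrees of freedom), Benjamini-Hochberg over all 33376. Fitting all probe sets, not 1 per gene, keeps the isoform information. Differences within a gene were fitted likewise. With 2 arrays on each side, the smallest two-sided p of an exact permutation test is 0.333. Both fits were tested on simulated data. The precision is limited by the number of arrays. Figures were drawn with matplotlib 3.10.9.

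All member probe sets are accounted for; of each list up to 4 genes with the largest LM2 difference are named, and 5 probe sets most like the leading member. ACTA2, SRF and MYOCD were added after their values were seen. Members and lists were chosen with earlier results of these data known. Alternatives covered filter, normalization, prior, probe set types, arrays, replicates, a replicate block and 1 probe set per gene; leaving out tied values, setting low values to 6.03 and every alternative for differences within a gene between LM2 and LM1 were added after seeing the data.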

Additional observations from a re-analysis of the deposited data

Results flagged for a closer look

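In 4 of the 38 member probe sets the LM1 array and both LM2 arrays stood on opposite sides of both SN12C arrays; 3 of these were among the 28 tested, and 8.09% of all tested probe sets showed the same. For CALD1 201617_x_at, under 6.03 in SN12C and LM1, LM2 exceeded LM1 by 3.51 (limma adjusted p = 0.106) and for TPM4 209344_at by 2.89 (0.106). For TAGLN 1555724_s_at the gap was 0.61 (limma adjusted p = 0.276), and LM1 lay only just under the lower SN12C array, at 7.68 against 7.71. For CALD1 214880_x_at, which is below the filter value on all arrays, it was 0.84, and this difference was not tested.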

How the results depend on the processing

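The counts of called probe sets were 0 for LM2 against SN12C, LM1 against SN12C and LM2 against LM1, and for differences within a gene 0 for LM2 and 2855 for LM1 against SN12C and 3039 for LM2 against LM1. A further quantile normalization gave 1158 for LM1 against SN12C and 325 for LM2 against LM1; leaving out tied values gave 282 and 13. Without _x_at and _s_at probe sets 798 differences within a gene were called for LM1 against SN12C and 788 for LM2 against LM1, from fewer probe sets tested. Leaving out 1 replicate gave 0 to 8105 for LM2 against SN12C, 0 to 10386 for LM1 against SN12C, 0 to 5776 for LM2 against LM1, and within genes 0 to 3720 for LM2 and 0 to 6536 for LM1 against SN12C and 0 to 6531 for LM2 against LM1. The replicate numbers do not mark pairs in the labels (correlation of same-numbered deviations 0.067); with the replicate block the differences within a gene called for LM2 went from 0 to 5, 2 of them of CALD1 (201615_x_at and 215198_s_at), and no other count moved by over 1.5 times. The direction turned for 7 member probe sets, whose differences ran from -0.29 to 0.02. After the further quantile normalization MYLK 1568770_at became 0.0144, TPM2 212654_at 0.0052 and TAGLN 226523_at -0.0798; after centring on medians the former pair became 0.0029 and 0.0035. The further quantile normalization also lowered the LM2 differences of bright member probe sets. Among them TPM4 212481_s_at became 0.44, TPM4 209344_at 0.30, CNN2 201605_x_at 0.16 and CNN1 203951_at -1.245. Dim ones such as TPM1 206117_at, at 0.24, rose slightly. With 1 replicate left out, LM2 minus SN12C ranged from -0.10 to 0.11 for CALD1 215198_s_at, -0.62 to 0.0498 for CNN3 201445_at, -0.0776 to 0.0535 for MYLK 1568770_at, -0.0587 to 0.0891 for TAGLN 226523_at, -0.43 to 0.0034 for TPM2 204083_s_at, -0.15 to 0.12 for TPM2 212654_at and -0.29 to 0.0546 for TPM4 1559989_at. The other 21 tested member probe sets kept their direction, or stood at 0, under every alternative that could be run for them; setting values under 6.03 to 6.03 moved CALD1 201616_s_at and 201617_x_at to 1.55 and 1.12. The cause of these changes was not tested.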
